A study of Mus musculus with 2 samples.

Results

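The genes described here make prostaglandins and leukotrienes or receive the prostaglandin signal, and they were chosen by symbol: Ptgs2, its noncoding neighbours Ptgs2os and Ptgs2os2, Ptgs1, Ptges, Alox5, Alox5ap, Pla2g4a, Ptger2 and Ptger4. All 10 were found in the gene tables, among 55536 annotated genes, and each symbol matched 1 gene identifier. They were read in primary macrophages grown from the bone marrow of C57BL/6J mice (BMDM) and exposed for 90 min to lipid A at 100 ng/ml, the lipid anchor of lipopolysaccharide and the ligand of TLR4. RNA came from the nucleoplasmic fraction, was depleted of ribosomal RNA and was sequenced as total RNA. The study holds 1 group of 2 biological replicates with the same donor entry, made from 1 µg and 500 ng of starting RNA, and nothing in the labels says whether they were separate cultures. No unstimulated library and no other cell fraction was analysed here. The values are therefore levels in the nucleoplasmic RNA of stimulated cells and not responses to lipid A, and no p-value is given.

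Arachidonic acid is held in membrane phospholipids until a phospholipase A2 releases it. The prostaglandin H synthases Ptgs1 and Ptgs2, also called COX-1 and COX-2, turn it into prostaglandin H2, from which separate synthases make prostaglandin E2, prostaglandin D2, thromboxane and prostacyclin, whereas Alox5, presented with arachidonic acid by the membrane protein Alox5ap (FLAP), opens the branch to the leukotrienes. In macrophages Ptgs2 is a classic early gene of the Toll-like receptor response, and prostaglandin E2 acts back on the same cells through the receptors Ptger2 (EP2) and Ptger4 (EP4), both of which raise cyclic AMP.

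The start of Ptgs2 is shown first because Ptgs2 had the highest level of the 10 genes. In the GENCODE M21 annotation the antisense gene Ptgs2os also begins only 68 bases away, on the other strand. Beside it stand the same window of Ptgs1, the other prostaglandin H synthase, and that of Ptgs2os2, the neighbouring long noncoding RNA known as lincRNA-Cox2. The windows are from RefSeq on GRCm38.p6 and run 5′ to 3′ from 250 bases before to 50 bases after each annotated start. They are Ptgs2 at chr1:150099781-150100080 on the plus strand, Ptgs1 at chr2:36230176-36230475 on the plus strand and Ptgs2os2 at chr1:150164899-150165198 on the minus strand. Capitals mark every match, on either strand, to the motifs described next.
Ptgs2: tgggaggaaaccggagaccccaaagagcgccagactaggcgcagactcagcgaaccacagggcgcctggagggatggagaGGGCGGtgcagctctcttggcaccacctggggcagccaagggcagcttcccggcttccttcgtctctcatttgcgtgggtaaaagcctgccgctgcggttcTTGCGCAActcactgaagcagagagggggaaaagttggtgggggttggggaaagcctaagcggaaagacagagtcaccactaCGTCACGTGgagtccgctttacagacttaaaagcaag
Ptgs1: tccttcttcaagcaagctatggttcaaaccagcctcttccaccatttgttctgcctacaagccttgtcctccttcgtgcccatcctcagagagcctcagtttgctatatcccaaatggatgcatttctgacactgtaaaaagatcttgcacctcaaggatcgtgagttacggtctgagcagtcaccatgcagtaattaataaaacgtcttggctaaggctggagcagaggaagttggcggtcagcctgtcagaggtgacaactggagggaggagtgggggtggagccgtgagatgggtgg
Ptgs2os2: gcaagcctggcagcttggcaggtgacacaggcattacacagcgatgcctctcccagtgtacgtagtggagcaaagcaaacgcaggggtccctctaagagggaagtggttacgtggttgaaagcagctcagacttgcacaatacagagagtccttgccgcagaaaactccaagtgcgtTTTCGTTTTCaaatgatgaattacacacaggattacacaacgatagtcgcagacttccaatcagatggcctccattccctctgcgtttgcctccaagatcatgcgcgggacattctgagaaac

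In the Ptgs2 window, counted from the start at +1, the C/EBP palindrome TTGCGCAA lay at -69 to -62 and the GC box GGGCGG at -170 to -165. The cyclic AMP response element core TGACG was found on the minus strand at +14 to +18, where it overlapped an E-box CACGTG at +17 to +22. TTGCGCAA is carried by 0.183% of the 32851 RefSeq mouse windows of this length, CACGTG by 7.15%, TGACG by 20.8% and GGGCGG by 35.7%. The Ptgs1 window held none of the motifs searched. The Ptgs2os2 window held 1 match to the interferon-stimulated response element at -73 to -64, a motif carried by 3.44% of all windows. RefSeq windows were matched for 9 of the 10 genes, in 10 windows, because Pla2g4a has more than 1 start. None of the 10 windows held the NF-kB consensus, which 4.51% of all windows carry, or the AP-1 motif TGANTCA, which 7.81% carry. GC boxes were also found in Ptger4 (4 matches, of which the leftmost pair share a base), Ptges (2 matches) and Alox5 (1 match), and the only TATAAA box, which 13.6% of all windows carry, was in a window of Pla2g4a. These matches describe letters in a short window and say nothing of which factors bind there or elsewhere.

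Levels were compared as TPM, a relative abundance that divides reads by transcript length, from the first of 2 deposited quantifications. At 1 TPM or more in both libraries stood 7 of the 10 genes, against 19.3% of all annotated genes, and 7 of the 8 protein-coding members, against 38.9% of all protein-coding genes. From high to low the mean levels ran Ptgs2, Ptger4, Alox5ap, Ptger2, Ptgs1, Pla2g4a, Ptges, Ptgs2os2, Alox5 and Ptgs2os. By the second quantification Ptgs2 was again highest and Ptgs2os lowest, but Pla2g4a (mean 10.3 TPM) stood above Ptger2 (5.89 TPM), and Ptges (3.65 TPM) and Ptgs2os2 (3.52 TPM) stood above Ptgs1 (3.25 TPM). In the first quantification only Alox5 and Ptgs2os, at the bottom, were neighbours whose values overlapped between the 2 libraries. The deposited intervals around single TPM values did overlap for Ptgs2 and Ptger4 in replicate 1, for Ptger4 and Alox5ap and for Pla2g4a and Ptges in replicate 2, and in both libraries for Ptgs1 and Pla2g4a and for Ptgs2os2 and Alox5. The 3 members under 1 TPM were Ptgs2os2, Alox5 and Ptgs2os, counted from 6 to 25 estimated reads a library. With nucleoplasmic RNA pooled over the cells of a culture, fewer cells of a type and less nucleoplasmic RNA per cell cannot be told apart.

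**Figure D1:**
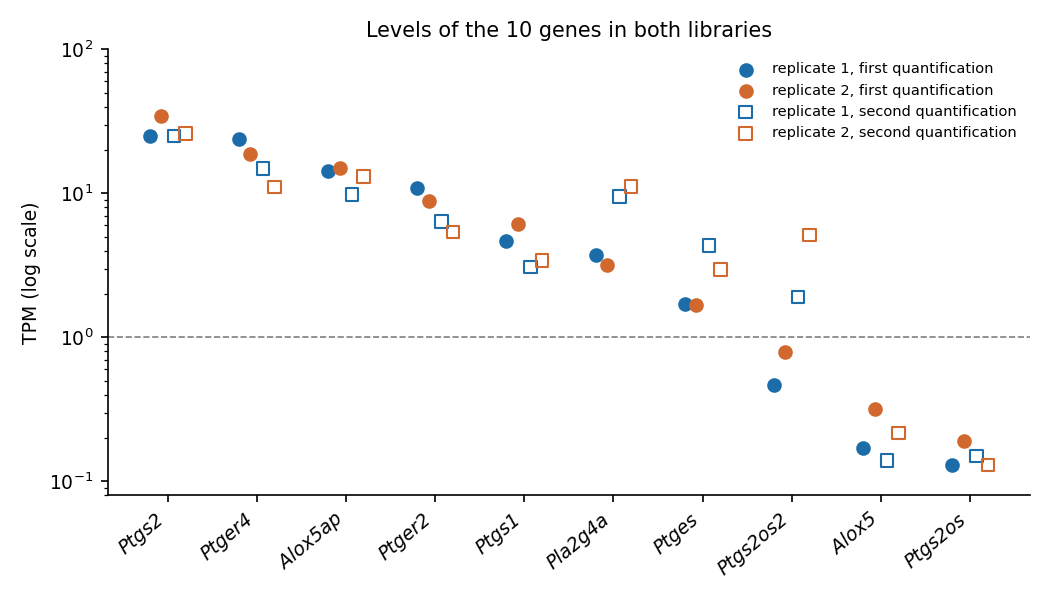
TPM (log axis) of the 10 genes in replicate 1 (blue) and replicate 2 (orange), from the first quantification (filled circles) and the second (open squares); the dashed line marks 1 TPM. In the first quantification Ptgs2 stands highest in both libraries at 25.2 and 34.1 TPM, and the squares of Pla2g4a, Ptges and Ptgs2os2 lie above their circles.

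Ptgs2, the inducible prostaglandin H synthase, spans chr1:150100031-150108227 on the plus strand of mm10. It stood at 25.2 TPM in replicate 1 and 34.1 TPM in replicate 2, or 29.7 ± 6.34 TPM (SD, n = 2), from 3716 and 2500 estimated reads. Ptgs2 exceeded 83.0% and 84.2% of the 8572 coding genes that reached 1 TPM in both libraries. Its deposited intervals were 23.7 to 25.5 TPM and 30.9 to 33.9 TPM, so the replicate 2 value lay just above its own interval. The protein-coding genes with the most similar pair of levels were Cic (25.1 and 34.0 TPM), Sh3pxd2b (25.1 and 34.6 TPM) and Dnm2 (25.1 and 34.7 TPM), by distance on the log2(TPM + 0.1) scale over the 2 libraries.

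Ptgs1, the prostaglandin H synthase that many cells make without stimulation, spans chr2:36230426-36252272 on the plus strand. It stood at 4.70 and 6.08 TPM, from 379 and 244 estimated reads. Within each library the Ptgs2 level was 5.36-fold and 5.62-fold that of Ptgs1, a log2 ratio of 2.46 ± 0.05 (SD, n = 2). The second quantification gave a wider gap by gene level, 8.11-fold and 7.60-fold. There 9.07 and 5.32 TPM of Ptgs2 lay in the short transcript Ptgs2-202, from 82.8 and 35.7 estimated reads. The full-length Ptgs2-201 stood at 15.9 and 20.7 TPM, against 3.07 and 3.42 TPM for Ptgs1. Ptgs2 was therefore the higher of the pair in both libraries and both quantifications. By gene level the ratio differed by less between libraries than between quantifications.

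The 3′ untranslated region of Ptgs2 held the most ATTTA pentamers of the coding members. This pentamer is the core of the AU-rich elements that mark many short-lived cytokine and early-response messages. In Ptgs2-201 the region is 2445 bases long and holds 14 ATTTA pentamers, overlapping ones included, more than 97.6% of the 8463 coding genes that reached 1 TPM and have an annotated 3′ untranslated region. The median of those genes was 1, and 6.19% of them had 10 or more. The densest 30 bases, at chr1:150105794-150105823 in the last exon, begin at base 12 after the stop codon and hold 4 pentamers, shown in capitals.
Ptgs2-201: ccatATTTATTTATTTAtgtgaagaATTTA

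Ptgs1-201 had 0 pentamers in 921 bases and Ptges-202 had 0 in 3106 bases. Ptger2-201 had 6, Ptger4-201 had 5, and Alox5ap-201 and Alox5-201 had 2 each. Pla2g4a-201 had 4 in only 443 bases, which is 9.03 per kb against 5.73 per kb in Ptgs2 and a median of 1.34 per kb. A count grows with length, and the median region was 1004 bases long. By pentamers per kb, Pla2g4a exceeded 98.6% of the coding genes compared, Ptgs2 94.9%, Alox5ap 92.6% and Ptger4 89.0%. A high density was thus shared by several members. The 2 prostaglandin H synthases thus had 14 and 0 pentamers. Of the coding genes compared, 67.6% had at least 1, so a count of 0 was not rare. No half-life was measured here.

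Pla2g4a, the cytosolic phospholipase A2 that frees arachidonic acid for both branches, spans chr1:149829618-149961290 on the minus strand. It stood at 3.73 and 3.16 TPM in the first quantification, from 256 and 160 estimated reads, and at 9.51 and 11.2 TPM in the second. Nearly all of that gap came from Pla2g4a-203, a noncoding transcript of 247 bases. It was given 6.57 and 8.85 TPM from 28.0 and 26.2 estimated reads in the second quantification, but 0.84 and 0 TPM in the first. The coding transcripts together stood at 1.65 TPM in each library in the first quantification and at 1.23 and 1.33 TPM in the second, so their level differed far less than that of the gene.

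Ptges, the microsomal prostaglandin E synthase that acts with Ptgs2, spans chr2:30889471-30929863 on the minus strand. It was the lowest of the 7 coding members that reached 1 TPM, at 1.71 and 1.68 TPM, from 122 and 83 estimated reads. It exceeded only 10.6% and 5.27% of the coding genes that reached 1 TPM. In the second quantification it stood at 4.33 and 2.96 TPM, where short noncoding transcripts took 87.2% and 67.1% of the gene's TPM. In the first quantification noncoding transcripts took 46.8% and 18.5%. Its coding transcript Ptges-202 stood at 0.91 and 1.37 TPM in the first quantification and at 0.55 and 0.97 TPM in the second.

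Both prostaglandin E2 receptors stood above Ptges by gene level, in both libraries and both quantifications. Ptger4, on chr15:5206661-5244187, stood at 23.7 TPM in replicate 1 and 18.7 TPM in replicate 2, from 2539 and 998 estimated reads. Ptger2, on chr14:44988195-45003820, stood at 10.9 and 8.91 TPM, from 965 and 401 estimated reads. Ptger4 was 2.17-fold and 2.10-fold above Ptger2 within the libraries, and 2.33-fold and 2.04-fold in the second quantification. By TPM both receptors were lower in replicate 2, whereas Ptgs2 was higher there. In counts scaled between the libraries, described below, the receptors were again lower but Ptgs2 was unchanged, at a log2 ratio of -0.00.

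The gene level of Ptger2 consisted mostly of a transcript that is not annotated as coding. Ptger2-202, annotated as a retained intron and made of 1 exon of 2651 bases at chr14:44988666-44991316, shares 1142 bases with the exons of the coding Ptger2-201 and has 1509 bases outside them. It took 90.0% and 83.7% of the gene's TPM in the first quantification and 89.8% and 86.5% in the second. Among the 5581 such coding genes that have annotated retained-intron and coding transcripts, the median share was 35.2% and 34.3%, and Ptger2 exceeded 99.1% and 97.7% of them. The coding Ptger2-201 stood at 1.09 and 1.45 TPM. By coding transcripts alone, the 2 receptors were thus much further apart than by gene level, since those of Ptger4 summed to 23.3 and 17.4 TPM. Ptger4, however, has no transcript annotated as a retained intron. Any intron reads could therefore not be set apart from its coding sum in the same way, and how much of the gap this makes was not tested.

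The other members differed in transcript makeup. In Ptger4 the coding transcripts Ptger4-201 and Ptger4-202 took 64.1% and 33.9% in replicate 1 and 74.6% and 18.7% in replicate 2, and they share nearly all of their exon bases. In the second quantification their order was reversed in replicate 1, at 43.3% and 54.6%, but not in replicate 2, at 67.2% and 25.7%. In Ptgs1 the noncoding Ptgs1-204, whose 2741 bases include 2624 that lie in exons of Ptgs1-201, took 48.3% and 75.1%, and the coding Ptgs1-201 took 39.8% and 14.7%. The second quantification split the same pair differently, with 61.8% and 39.2% for Ptgs1-201. The division between Ptgs1-204 and Ptgs1-201 is therefore uncertain. In Pla2g4a the retained-intron Pla2g4a-204 took 33.2% and 47.9%, near the median of other genes in replicate 1, and the coding Pla2g4a-201 took 31.4% and 52.1%. In the second quantification these shares were 7.50% and 8.92% for Pla2g4a-204, and 9.46% and 6.78% for Pla2g4a-201. Alox5ap was mostly coding, with 74.8% and 83.8% in Alox5ap-201 and Alox5ap-202 together.

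All reads of Ptgs2 were given to the full-length Ptgs2-201, of 4453 bases and 10 exons, in the first quantification. The second gave 36.4% and 20.4% of the TPM to Ptgs2-202, of 358 bases, from 82.8 and 35.7 of the gene's estimated reads, while Ptgs2-201 kept 4483 and 3935. Ptgs2 has no transcript annotated as a retained intron, so the tables cannot show how much of its RNA in the nucleoplasm was unspliced.

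**Figure D2:**
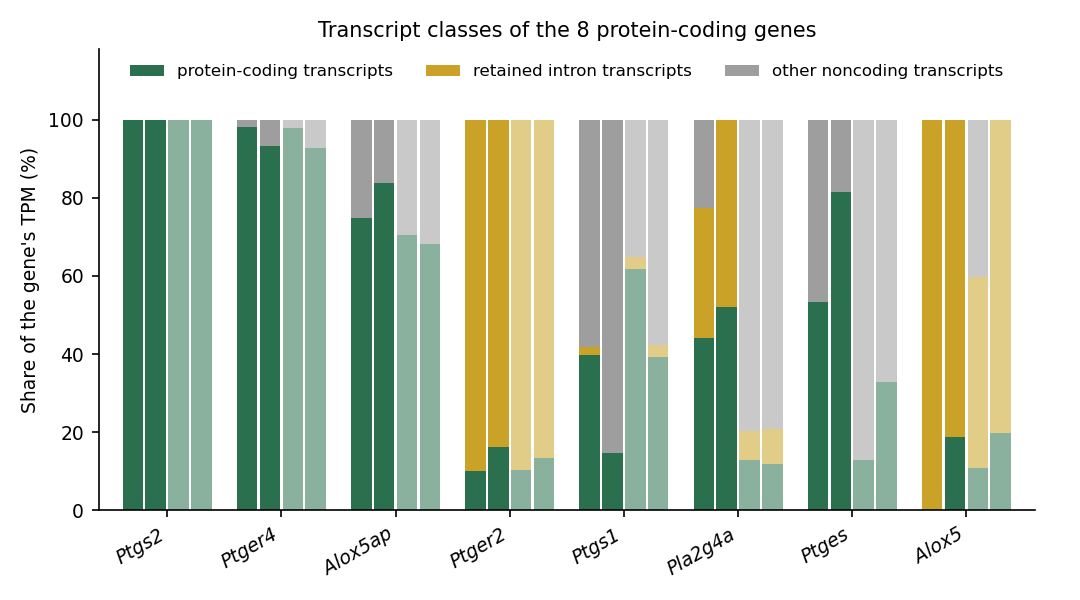
Share of each protein-coding gene's TPM (%) in coding (green), retained-intron (yellow) and other noncoding transcripts (grey); the 4 bars of a gene are replicates 1 and 2 of the first quantification (dark) and of the second (pale). Ptger2 is mostly retained intron in all 4 bars (83.7% to 90.0%), while the bars of Pla2g4a and Ptges change between the quantifications.

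In the leukotriene branch the 2 partners were far apart. Alox5ap, on chr5:149264767-149288153, stood at 14.2 and 15.0 TPM, from 350 and 195 estimated reads. Alox5, the 5-lipoxygenase that it serves, on chr6:116410077-116461178, stood at 0.17 and 0.32 TPM, from 8 and 9 estimated reads. Both values lay below their own deposited intervals, 0.177 to 0.701 TPM and 0.335 to 1.40 TPM. By the TPM values Alox5ap was 83.5-fold and 46.8-fold above Alox5, and 70.1-fold and 60.8-fold in the second quantification. The Alox5 reads were too few to place on transcripts: its main coding transcript Alox5-201 was listed at 0 and 0.06 TPM. Alox5 was low in both quantifications, at 0.14 and 0.22 TPM in the second.

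Neutrophils, a classic source of leukotrienes that also express both genes, had markers at low levels in these libraries. Of 9 neutrophil markers 2 reached 1 TPM in both libraries, S100a9 at 1.59 and 1.54 TPM and Mmp8 at 1.20 and 2.59 TPM. Both stood above Alox5. The summed level was 4.20 and 6.14 TPM, and Ly6g, Elane, Camp and Retnlg were listed at 0 in both. The part of neutrophil RNA in the Alox5 and Alox5ap levels was not tested. All 11 macrophage markers reached 1 TPM, with a summed level of 2115 and 2825 TPM. Of 9 mast cell, basophil and eosinophil markers none reached 1 TPM, with summed levels of 0.05 and 0.31 TPM. Mcpt8, Tpsb2, Fcer1a, Epx and Cma1 were listed at 0 in both. Of 6 megakaryocyte and platelet markers 2 reached 1 TPM in both libraries, Pf4 at 12.8 and 27.1 TPM and Treml1 at 2.61 and 3.97 TPM. The others were lower: Itga2b at 0.38 and 1.32 TPM, Ppbp at 0.03 and 0.40 TPM, Gp1ba at 0.16 and 0.21 TPM and Gp9 at 0.17 and 0 TPM. None of the 6 was at 0 in both. The summed level of the 6 was 16.1 and 33.0 TPM, most of it from Pf4. Megakaryocytes and platelets express Ptgs1 and Tbxas1. The RNA here is nucleoplasmic and platelets have no nucleus, and the part of megakaryocyte RNA in the Ptgs1 and Tbxas1 levels was not tested.

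The noncoding neighbours of Ptgs2 were much lower than Ptgs2. Ptgs2os2, at chr1:150159043-150164948 on the minus strand, starts 64.9 kb beyond the Ptgs2 start and stood at 0.47 and 0.79 TPM, from 25 and 21 estimated reads. Ptgs2 was 53.6-fold and 43.2-fold above it. The second quantification gave Ptgs2os2 192 and 352 estimated reads and 1.90 and 5.13 TPM, which narrowed the gap to 13.1-fold and 5.07-fold. Ptgs2os2 was below Ptgs2 in every case, but its level rests on the quantification used, and the cause of the difference was not tested. Its 1 annotated transcript has 1745 bases and 2 exons.

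Ptgs2os, at chr1:150074873-150099963 on the minus strand, stood at 0.13 and 0.19 TPM, from 7 and 6 estimated reads, and at 0.15 and 0.13 TPM in the second quantification. Ptgs2 was 194-fold and 180-fold above it. Its reads fell mostly on Ptgs2os-201, of 1 exon, next to the Ptgs2 start. For Ptgs2os the RefSeq start is not the GENCODE start given above. The RefSeq windows of Ptgs2 and Ptgs2os share 256 of their 300 bases on opposite strands. The same C/EBP, E-box and GC-box matches therefore lie in both, while the RNA levels on either side differed by more than 7 units of log2. The sources used here do not say whether the counting used strand. The annotated Ptgs2 and Ptgs2os genes do not overlap, and reads beyond their ends could not be assigned.

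Within 250 kb of the Ptgs2 start, 12 annotated genes begin, and 4 of these are members. Pla2g4a starts 139 kb before Ptgs2 and runs away from it. Of the others, Gm19136, Gm44329, Gm9687, Gm4322, Pdc, Gm37764 and 2310030A07Rik were listed at 0 TPM in both libraries of the first quantification, and the pseudogene Rbm3-ps stood at 0 and 0.24 TPM. A value of 0 allows up to 3 reads, which is 0.132 and 0.201 CPM in the 2 libraries, where CPM is reads scaled to library size. In the second quantification Gm37764 was given 1.84 and 4.54 TPM and Gm44329 0 and 2.21 TPM. Ptgs2 and Pla2g4a, the enzymes of 2 successive steps, were thus the only genes of this stretch to reach 1 TPM in the first quantification.

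**Figure D3:**
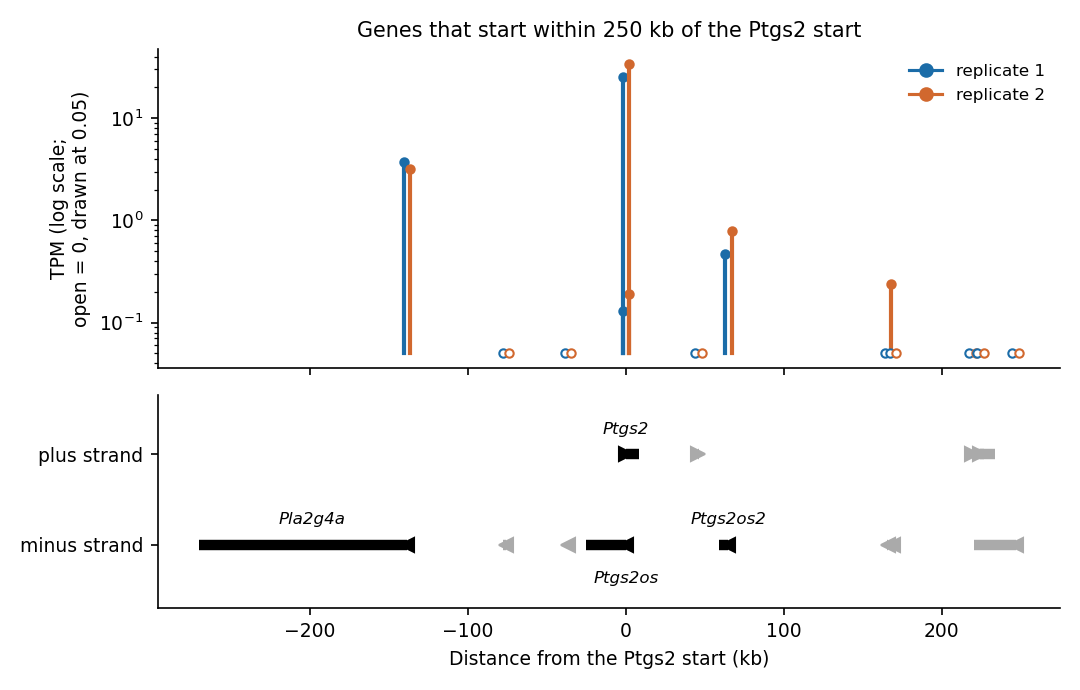
Top, TPM (log axis) of the 12 genes that start within 250 kb of the Ptgs2 start, in replicates 1 (blue) and 2 (orange), open circles for 0; bottom, their extent and strand, with arrowheads at the starts and the 4 members in black. Ptgs2 stands at 25.2 and 34.1 TPM, Pla2g4a at 3.73 and 3.16 TPM, and most other genes are at 0.

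Of 56 other genes of the pathway, listed by role, 22 reached 1 TPM in both libraries, against 38.9% of all protein-coding genes. The list as a whole was thus near the share of coding genes at large. Among 9 further prostanoid synthases, 5 reached 1 TPM. The highest was Hpgds, the haematopoietic prostaglandin D synthase, at 42.8 and 39.6 TPM, which was 25.0-fold and 23.6-fold above Ptges and 1.70-fold and 1.16-fold above Ptgs2. In the second quantification Hpgds was 8.99-fold and 10.3-fold above Ptges. Tbxas1, the thromboxane synthase, stood at 13.3 and 16.8 TPM, 7.80-fold and 9.98-fold above Ptges. Ptges3, the cytosolic prostaglandin E synthase that is also the p23 co-chaperone, stood at 8.65 and 11.7 TPM, 5.06-fold and 6.95-fold above Ptges. In the second quantification Tbxas1 was 4.52-fold and 9.87-fold above Ptges, and Ptges3 2.13-fold and 4.46-fold. These 3 are the highest of the list. Ptges2, another membrane-bound prostaglandin E synthase, stood at 0.97 and 1.96 TPM, on either side of it. Below Ptges in both libraries stood Fam213b at 1.59 and 1.44 TPM, Cbr1 at 0.92 and 0.90 TPM, Ptgds at 0.03 and 0 TPM, and Ptgis, the prostacyclin synthase, which was listed at 0 in both.

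The phospholipases and acyltransferases around Pla2g4a covered a wide range. Of 12 other release enzymes 3 reached 1 TPM: Pla2g15, the lysosomal phospholipase A2, at 17.9 and 22.6 TPM, Mgll, the monoacylglycerol lipase, at 3.63 and 5.26 TPM, and Pla2g6, a calcium-independent phospholipase A2, at 1.47 and 2.31 TPM. Pla2g15 was 4.80-fold and 7.14-fold above Pla2g4a in the first quantification but only 1.21-fold and 1.25-fold above it in the second. All 4 listed genes that return arachidonic acid to phospholipids reached 1 TPM, Lpcat2 at 11.8 and 13.6 TPM, Acsl4 at 7.63 and 13.5 TPM, Lpcat3 at 8.31 and 9.87 TPM and Mboat7 at 6.64 and 8.95 TPM. Each of these 4 stood above Pla2g4a in both libraries of the first quantification, but in the second only Lpcat2 did so in both.

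On the leukotriene side 4 of 9 further enzymes reached 1 TPM. Lta4h, which makes leukotriene B4, stood at 4.24 and 6.09 TPM, and Ltc4s, which makes leukotriene C4, stood at 2.36 and 2.76 TPM, so both lay above Alox5 and below Alox5ap. Dpep2, a dipeptidase that turns leukotriene D4 into leukotriene E4, was the highest gene of the whole pathway list in the first quantification, at 56.9 and 52.8 TPM. In the second it stood at 33.3 and 29.6 TPM, below Hpgds at 39.0 and 30.7 TPM. It was 13.4-fold and 8.66-fold above Lta4h. The symbol Dpep2 belongs to 2 gene identifiers, so its level is uncertain. None of 6 other lipoxygenases reached 1 TPM, and Alox12b, Alox12e, Alox15 and Alox8 were listed at 0. With Alox5 at 0.17 and 0.32 TPM, no arachidonate lipoxygenase of the lists reached 1 TPM in either library of the first quantification. There Aloxe3 stood at 0.02 and 0.07 TPM and Alox12 at 0.14 and 0.15 TPM. The second gave Aloxe3 1.10 and 1.16 TPM and Alox12 0.74 and 2.20 TPM, both named after these values were seen.

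Among receptors, 2 of 7 further prostanoid receptors reached 1 TPM, Ptger1 at 3.35 and 4.08 TPM and Ptgir, the prostacyclin receptor, at 3.35 and 3.10 TPM. Ptger3 stood at 0.20 and 0.25 TPM, and Ptgdr, Ptgfr and Tbxa2r, receptors of prostaglandin D2, prostaglandin F2α and thromboxane, were listed at 0. Ptger4 and Ptger2 were thus above every other prostanoid receptor of the list by gene level. Of 4 leukotriene receptors 1 reached 1 TPM in both libraries, Cysltr2 at 2.78 and 2.64 TPM, with Cysltr1 at 0.81 and 1.00 TPM. Of 5 genes of prostaglandin transport and breakdown, Abcc4 (1.83 and 2.15 TPM), Ptgr2 (1.30 and 3.07 TPM) and Ptgr1 (1.06 and 1.36 TPM) reached it. Hpgd, which inactivates prostaglandin E2, had 1 estimated read in each library, and the uptake carrier Slco2a1 had 0. The second quantification gave Slco2a1 306 and 640 estimated reads, or 0.74 and 2.66 TPM.

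**Figure D4:**
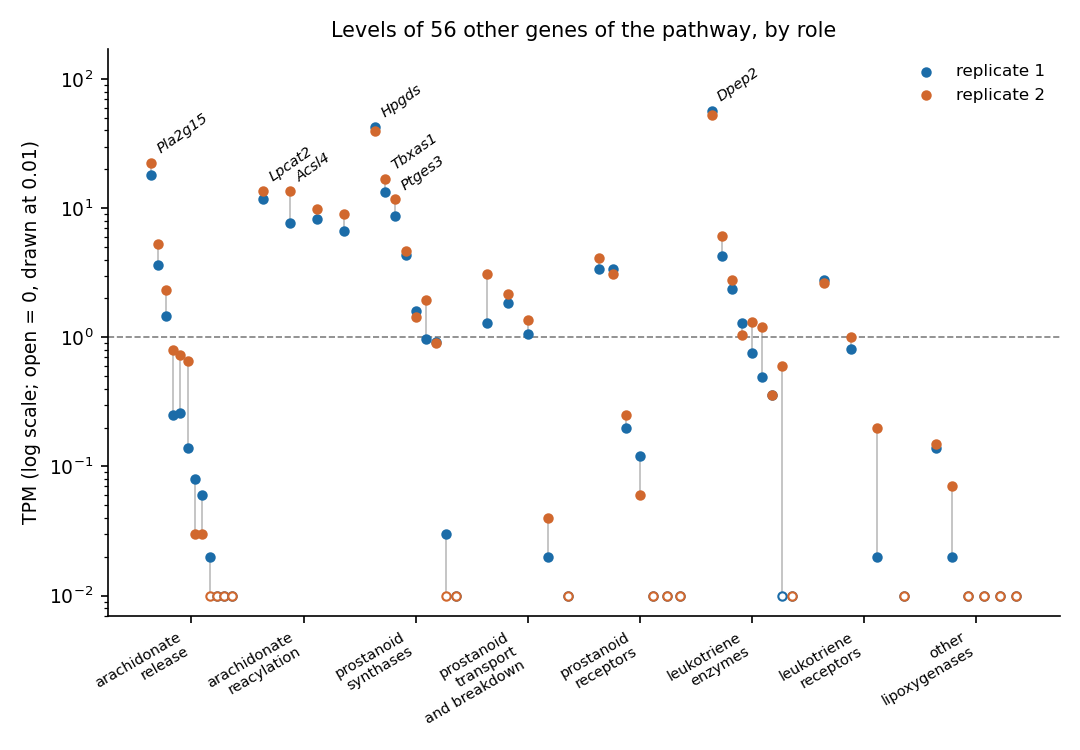
TPM (log axis) of the 56 other pathway genes by role, replicate 1 in blue and replicate 2 in orange, joined by a line, open circles for 0; names are given at a mean of 10 TPM or more and the dashed line marks 1 TPM. Dpep2 and Hpgds are the highest, all 4 reacylation genes lie above the line, and the 6 other lipoxygenases lie below it in this quantification.

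How well the levels repeated was read from the log2 ratio of replicate 2 over replicate 1 in scaled counts. Of the 10 genes 8 had enough reads to enter. None of the 8 differed by more than 2-fold, against 5.53% of the 13515 genes tested, of which 292 were higher and 455 lower in replicate 2. Their ratios ran from -0.78 to 0.29, with a median of -0.09 against -0.00 over all genes, and a median size of 0.19 against 0.27. By more than 1.5-fold differed 2 of the 8, against 19.4% of all genes. These were the 2 receptors, Ptger4 at -0.78 and Ptger2 at -0.70, both lower in replicate 2. Ptgs2os2 at 0.29 and Alox5ap at -0.27 followed, and Ptgs1, Pla2g4a, Ptges and Ptgs2 lay between -0.11 and 0.01.

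The ratio of Ptgs2 was -0.00, although its TPM was higher in replicate 2, at 34.1 against 25.2. Over the 8572 coding genes that reached 1 TPM, the TPM of replicate 2 was higher by a median log2 ratio of 0.38, so the higher Ptgs2 TPM is shared by the typical gene. Relative to that shift the TPM ratio of Ptgs2 was 0.06. The lower values of the receptors were seen on this scale as well, at -0.72 for Ptger4 and -0.67 for Ptger2, and in the second quantification at -0.96 and -0.75. The centred TPM ratio was -0.61 for Pla2g4a and -0.40 for Ptges, so 3 of the 8 differed by more than 1.5-fold on that scale. Ptgs2os2 was at 0.90 in the second quantification. With starting RNA of 1 µg and 500 ng in the same 2 libraries, amount and replicate cannot be told apart.

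**Figure D5:**
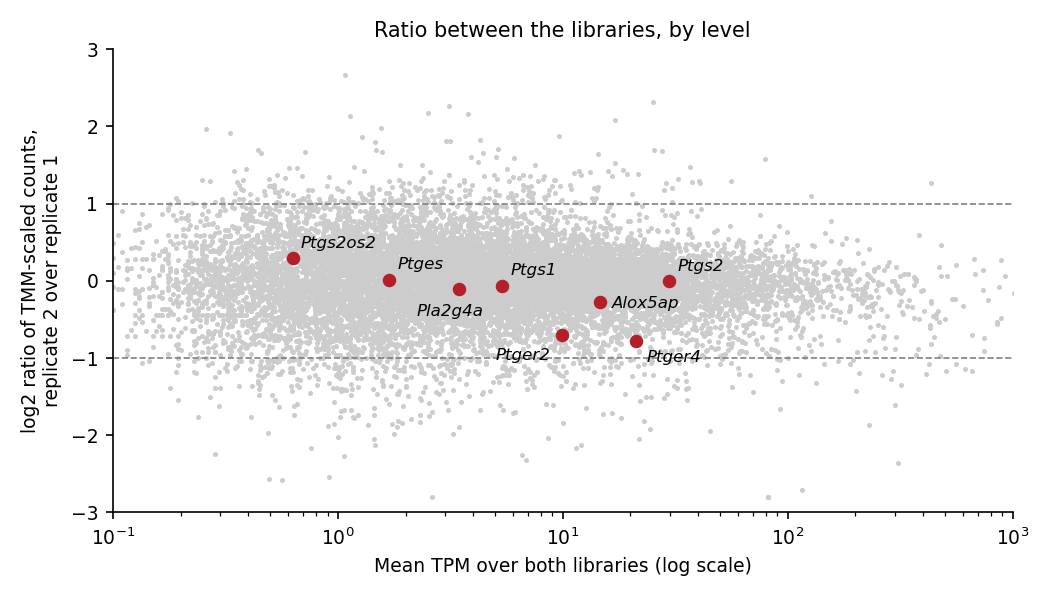
Log2 ratio of TMM-scaled counts, replicate 2 over replicate 1, against mean TPM (log axis) for the genes that entered the comparison (grey) and the 8 members among them (red); dashed lines mark a 2-fold difference, and 88 genes outside the axes are not drawn. The members lie between -0.78 and 0.29, with Ptger4 and Ptger2 lowest.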

How the data were processed

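Per library, the authors' files were gene and transcript tables of a first quantification, and transcripts only of a second. Per the file headers and the labels, the first used an alignment to mm10 transcripts with GENCODE release M21, and the second used 10 read files a library directly; the sources used here name no aligner or quantifier. The deposited expected counts, estimated reads per feature that need not be whole, summed to 22669533 and 14939143 in the first quantification and 30881427 and 27674626 in the second. The deposited TPM is relative abundance per length over all features. The deposited FPKM served only as an alternative. The deposited bounds of the TPM intervals (unit signal) are printed as the authors gave them, with no stated level, and 5 of the 20 member TPM values lay outside their own interval.

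Levels were read as TPM, and transcripts of the second quantification were summed per gene. Ratios between libraries used counts rounded to whole numbers, filtered with filterByExpr and scaled by TMM in edgeR 4.0.16 (R 4.3.3), with a prior count of 2; the biological coefficient of variation was 0.211. DESeq2 1.42.0 size factors were an alternative. The computation was tested on simulated data. Coordinates and transcript types came from the GENCODE M21 annotation, in which all 55536 identifiers were found, and 3′ untranslated regions from the coding transcript with the highest mean TPM. The members and lists were chosen with earlier results of these data known. Named were all members, up to 3 of the highest genes of each pathway list and any other at 10 TPM or more in both libraries. Also named were genes at 0 where a list's count needs 5 or fewer, and genes starting within 250 kb of Ptgs2. The 3 protein-coding genes nearest to Ptgs2 in log2(TPM + 0.1) were named as well. Of the member transcripts with 5% or more of the gene's TPM, not all were named. Both replicates share a donor entry, so their spread may be technical, and intervals and limits cover counting error only.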

Additional observations from a re-analysis of the deposited data

How the results depend on the processing

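With a minimum of 5 TPM in place of 1 TPM, 4 members and 9 pathway genes were counted, against 7 and 22. The share over all genes was computed only for 1 TPM in the first quantification. Rescaling TPM to protein-coding genes gave 8 and 31, and the second quantification 8 and 24. Leaving out each replicate gave 7 to 7 members and 22 to 26 pathway genes. No member differed by more than 2-fold between the libraries with DESeq2 size factors, centred TPM, the second quantification or no filter on low counts.

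The mean log2 ratio of Ptgs2 over Ptgs1, 2.46, was 2.97 in the second quantification and 2.26 with a pseudocount of 1, and ran from 2.42 to 2.49 when a replicate was left out. That of Ptgs2os2 over Ptgs2, -5.59, was -3.03 in the second quantification, -5.37 with a pseudocount of 0.1 and -4.23 with 1, and ran from -5.74 to -5.43. A pseudocount moves such ratios by construction; the cause of the difference between quantifications was not tested. The mean TPM of 7 of the 10 members moved by more than its spread in the second quantification. Other genes moved too: all macrophage markers but Fcgr1 and Spi1 had a lower mean TPM there, for example Lyz2 at 541 TPM against 1010 TPM. Whether the members moved more than other genes was not tested. No paired analysis was possible because the study has 1 group. Alox5 and Ptgs2os rest on under 10 reads a library in the first quantification, and an absence of reads allows up to 3.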
